A study of Mus musculus with 72 samples.

Results

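Whole-blood transcript levels were compared directly between mice given 1 Gy of neutrons and mice given 0.25 Gy of neutrons, 1 day after exposure. The members of this comparison were chosen by sample title alone, and they are 12 of the 72 arrays of the series, each with the blood RNA of 1 mouse. In both groups (n = 6 mice each) young adult male C57BL/6 mice were irradiated as whole animals with neutrons from an accelerator whose beam, per the study's methods, also delivered some γ-rays, and blood was drawn by cardiac puncture. Globin transcripts were reduced in all RNA samples, and the labels name no transgene or drug in any group. The sham-irradiated controls of the same day (n = 5) are given beside them for orientation. The comparison asks which blood transcripts separate a low neutron dose from a dose 4 times as high while both exposures are recent.

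Ionizing radiation breaks DNA and activates the transcription factor p53, which turns on genes of cell cycle arrest, repair and apoptosis. Lymphocytes, and B cells above all, are among the most radiosensitive cells of the blood, whereas circulating neutrophils no longer divide. Cells that sense misplaced DNA or RNA, or secreted interferon, switch on interferon-stimulated genes, whose promoters often hold the interferon-stimulated response element, a pair of GAAA blocks bound by factors of the STAT and IRF families.

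The clearest difference between the doses lay in interferon-stimulated genes and Schlafen genes. Of 33 interferon-stimulated genes tested, 13 were higher at 1 Gy and 0 lower by limma, and 2 of 6 Schlafen genes, a family of interferon-inducible leukocyte genes, were higher. 5 more lists held at least 2 calls each. Among genes of mature neutrophils 4 of 18 were higher, and among acute-phase proteins 2 of 7, while 4 of 22 B cell genes and 3 of 11 genes of MHC class II presentation were lower. Of 16 chemokine receptor genes 1 was higher (Cxcr1) and 1 lower (Ccr6). These calls stand against 84 of 12485 genes in all (0.673%), 45 higher at 1 Gy (0.36%) and 39 lower (0.312%). A gene was called when limma's 2-sided p was below 0.001 and its Benjamini-Hochberg false discovery rate (FDR) below 0.05 over all genes tested. The order of the lists changed without mouse 5 at 0.25 Gy, whose array stood apart. In that fit 18 of 22 B cell genes and 9 of 11 MHC class II genes were called. Of interferon-stimulated genes 18 of 33 were called and of Schlafen genes 2 of 6, against 998 of 12485 genes in all (7.99%).

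Levels are given on the log2 scale relative to the median probe of the same array, and differences as 1 Gy minus 0.25 Gy with the standard error (SE). The smallest difference among called genes amounted to 1.77-fold. In 66 of the 84 called genes the 6 mice of one dose all lay on one side of the 6 mice of the other. Over all genes tested, 164 (1.31%) separated the groups in this way with 1 Gy higher and 96 (0.769%) with 1 Gy lower. The median difference over all genes was -0.03, with 5987 genes (48%) positive and 6498 (52%) negative. The split of calls moved with the reference level of the arrays. Centring on detected probes gave 55 higher and 92 lower, quantile normalization 24 and 34, and centring on the spike-in controls 623 and 26, where the median difference over 12194 genes moved from -0.02 to 0.40.

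**Figure D1:**
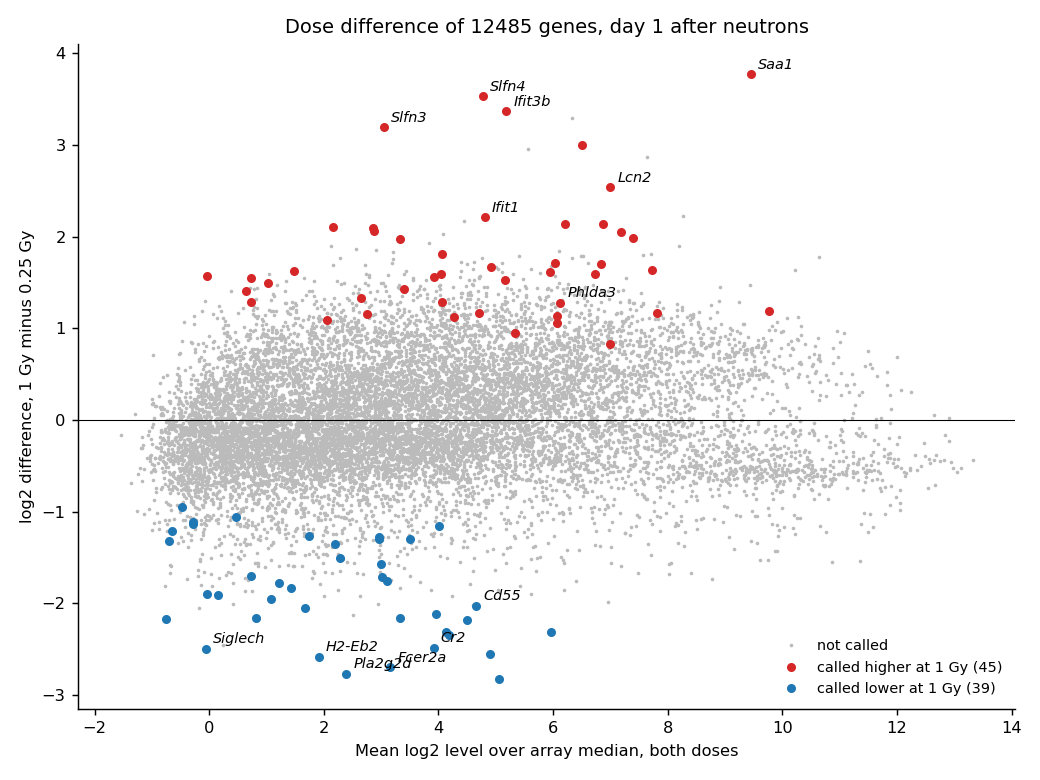
Difference between the doses (log2, 1 Gy minus 0.25 Gy, vertical axis) against the mean log2 level of both groups over the array median (horizontal axis) for 12485 genes. Red points are the 45 genes called higher at 1 Gy, blue points the 39 called lower, and grey points the genes not called; Slfn4, Ifit3b, Slfn3 and Saa1 lie highest.

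Arrays differed in quality and makeup in ways that bear on these counts. The share of spots well above background was 55.9 to 63.0% at 0.25 Gy, 60.8 to 63.0% at 1 Gy and 54.8 to 63.4% in controls. Mouse 5 of the 0.25 Gy group stood apart, with a mean correlation of 0.871 to its own group, against at least 0.9405 for the other 5. Its level of Ptprc, which encodes the leukocyte antigen CD45, was 3.91, against 5.67 to 6.39 in the others. Liver transcripts were present in the blood of all groups. Albumin (Alb) ranged from 7.17 to 13.94 at 0.25 Gy, from 4.47 to 13.04 at 1 Gy and from 4.45 to 11.96 in controls. Over 37 hepatocyte genes, the summed signal made up 0.0358 to 4.77% of the array at 0.25 Gy, 0.0123 to 3.15% at 1 Gy and 0.00934 to 1.36% in controls, highest in mouse 5 at 0.25 Gy and lowest at 1 Gy in mouse 4. None of the 10 hepatocyte genes tested was called. Without mouse 5 at 0.25 Gy, 998 genes were called (7.99%), 290 higher (2.32%) and 708 lower (5.67%), and this set included all 84.

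The other 11 fits with 1 mouse left out called 10 to 118 genes, and 10 of the 12 called fewer than 84. Only 10 genes were called in each of the 12 fits, namely Slfn4, Slfn3, Ifit3b, Ifit3, Ifit1, Oasl1, Oasl2, Usp18, Lcn2 and Siglech. For Siglech every one of these fits used the same dim probe, and a far brighter probe differed by only -0.42. Oasl1 and Usp18 fell outside the rule for named genes and were added once their values were known. The arrays also differed in scan day. All 0.25 Gy arrays and 1 Gy mice 1 to 4 were scanned on one day and 1 Gy mice 5 and 6 on another. Within the shared scan day 5 genes were called (0.04%), Ifit3b, Ifit3, Lcn2, Oasl1 and Usp18, and with scan day as a block 9 were. When mouse 5 at 0.25 Gy was also left out of the shared scan day, 414 genes were called, 91 higher and 323 lower. That last fit was chosen after seeing the data. No slide held both doses, so effects of slide and dose cannot be told apart. The 1 Gy arrays shared no slide with the controls either, whereas 2 control arrays and 2 of the 0.25 Gy arrays lay on the same slide. Differences between 1 Gy and controls therefore carry the same limit. With the slide as a random block 751 genes were called, with a consensus correlation of -0.16 within slides. That fit cannot take slide effects out of the dose difference, and its larger count does not make the difference firmer.

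The Ifit genes Ifit3b, Ifit3 and Ifit1, whose products bind viral RNA and restrain translation, lie close together on chromosome 19 and were among the firmest calls, so the bases before their start sites are shown. The sequences are RefSeq's for the 200 bases upstream of each start (build GRCm38.p6, plus strand), at chr19:34607757-34607956 for Ifit3b, chr19:34583329-34583528 for Ifit3 and chr19:34640689-34640888 for Ifit1. Capitals mark matches to the core of the interferon-stimulated response element, searched on both strands as GAAA, any 2 bases and GAAA again, which reads TTTC, any 2 bases and TTTC on the other strand.
Ifit3b: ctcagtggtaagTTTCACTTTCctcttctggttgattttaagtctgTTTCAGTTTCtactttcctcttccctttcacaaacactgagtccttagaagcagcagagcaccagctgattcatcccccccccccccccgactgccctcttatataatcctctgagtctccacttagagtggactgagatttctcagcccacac
Ifit3: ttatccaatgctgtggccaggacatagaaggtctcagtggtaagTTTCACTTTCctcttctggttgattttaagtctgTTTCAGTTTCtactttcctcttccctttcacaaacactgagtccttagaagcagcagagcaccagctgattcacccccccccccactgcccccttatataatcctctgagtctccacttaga
Ifit1: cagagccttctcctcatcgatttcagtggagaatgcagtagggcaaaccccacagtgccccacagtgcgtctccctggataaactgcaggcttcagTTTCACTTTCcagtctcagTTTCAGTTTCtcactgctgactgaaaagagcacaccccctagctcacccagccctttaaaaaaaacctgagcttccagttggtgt
Each holds 2 matches. The first match of Ifit1 begins 104 bases before the start, that of Ifit3 156 and that of Ifit3b 188. Ifit3 and Ifit3b are near-identical neighbours with nearly the same sequence here, and their transcripts may share probe signal.

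Promoter windows of 300 bases (250 before the start and 50 after) could be matched by symbol for 24 of the 33 interferon-stimulated genes, and 15 of them (62.5%) held the motif. It was found in 10 of 37 promoters of genes called higher at 1 Gy (27.0%), among them Ifit1, Ifit3, Ifit3b, Oas1a and Eif2ak2, and in 0 of 26 promoters of genes called lower. Within the interferon-stimulated list it was about as frequent in genes not called (9 of 15) as in called ones (6 of 9). Over all genes tested, 319 of 7753 promoters held it (4.11%). Of the 6 Schlafen promoters 1 did (16.7%), and that of Slfn4 did not. These are matches of letters and not measured binding.

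Slfn4, a Schlafen gene of myeloid cells, had the largest rise among genes whose groups did not overlap. Its probe lies at chr11:83002974-83003033 (mm9, the build of the array files). At 0.25 Gy its level was 1.42 at the lowest, 3.05 at the median and 4.38 at the highest, and at 1 Gy 5.84, 6.47 and 7.92. The groups did not overlap, and control mice lay between 1.36 and 2.83. The difference was 3.53 (SE 0.45, 11.6-fold, adjusted p = 0.00371 by limma). Slfn3, its neighbour on chromosome 11, had levels of 0.20, 1.45 and 2.67 at 0.25 Gy and 3.85, 4.64 and 5.91 at 1 Gy, with a difference of 3.19 (SE 0.41, adjusted p = 0.00371). Within the shared scan day the differences were 3.57 for Slfn4 and 3.19 for Slfn3, and neither was called (adjusted p = 0.05337 each). The remaining 4 Schlafen genes tested were not called and ranged from -0.19 for Slfn14 to 1.35 for Slfn1.

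Ifit3b had the smallest p of all genes tested. Its levels were 2.43, 3.60 and 4.09 at 0.25 Gy (lowest, median and highest) and 6.52, 6.90 and 7.20 at 1 Gy, so that every 1 Gy mouse exceeded every 0.25 Gy mouse by more than 2 log2 units. The difference was 3.37 (SE 0.27, 10.3-fold, adjusted p = 9.37e-05). Ifit3 ran from 3.89 through 5.16 to 5.51 at 0.25 Gy and from 7.54 through 8.14 to 8.32 at 1 Gy, a difference of 3.00 (SE 0.27, adjusted p = 0.000221). Ifit1 ran from 2.61 through 3.88 to 4.09 and from 5.40 through 5.94 to 6.39, a difference of 2.21 (SE 0.28, adjusted p = 0.00371). In all 3 Ifit genes the lowest 0.25 Gy value was that of mouse 5, and the other 5 mice of that group lay closer together.

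Oasl1 and Oasl2, relatives of the 2′-5′ oligoadenylate synthetases that sense double-stranded RNA, rose as well. Oasl2 ran from 4.83 through 6.04 to 6.36 at 0.25 Gy and from 7.49 through 7.94 to 8.53 at 1 Gy, a difference of 2.14 (SE 0.28, adjusted p = 0.00437). Oasl1 ran from 5.99 through 6.11 to 6.50 and from 7.93 through 8.14 to 8.81, a difference of 2.05 (SE 0.20, adjusted p = 0.000364). Oas2, one of the synthetases themselves, was called on the full set of mice (2.14, SE 0.34, adjusted p = 0.0194), and its difference was 2.20 (adjusted p = 0.132) within the shared scan day. Usp18, which removes the interferon-induced modifier ISG15 from proteins and damps the interferon receptor, had a narrow spread at 0.25 Gy, from 3.94 through 4.09 to 4.21 at 0.25 Gy and from 5.27 through 5.81 to 6.08 at 1 Gy. Its difference was 1.67 (SE 0.19, adjusted p = 0.00149). Mouse 5 at 0.25 Gy lay among the other mice of its group in Oasl1 and was the lowest in Usp18, by a small margin.

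The whole list of 33 had a median difference of 1.15, against -0.03 over all genes, with 31 positive values and 2 negative. The exceptions were Rsad2, an antiviral radical SAM enzyme (-1.05, adjusted p = 0.207), and the exonuclease gene Isg20 (-0.53, adjusted p = 0.286). Isg15 itself differed by 0.07 (adjusted p = 0.927) and Irf7, which drives interferon transcription, by 0.37 (adjusted p = 0.451). Over 39 list genes on the array, the mean level was 4.12 to 4.90 at 0.25 Gy (median 4.87), 5.38 to 6.14 at 1 Gy (median 5.76) and 4.41 to 4.78 in controls. All 1 Gy mice lay above all mice of both other groups on this mean. Called members numbered 18 without mouse 5 at 0.25 Gy, 5 to 10 in the other fits with 1 mouse left out, 3 within the shared scan day, and 21 with the hepatocyte level as a covariate.

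**Figure D2:**
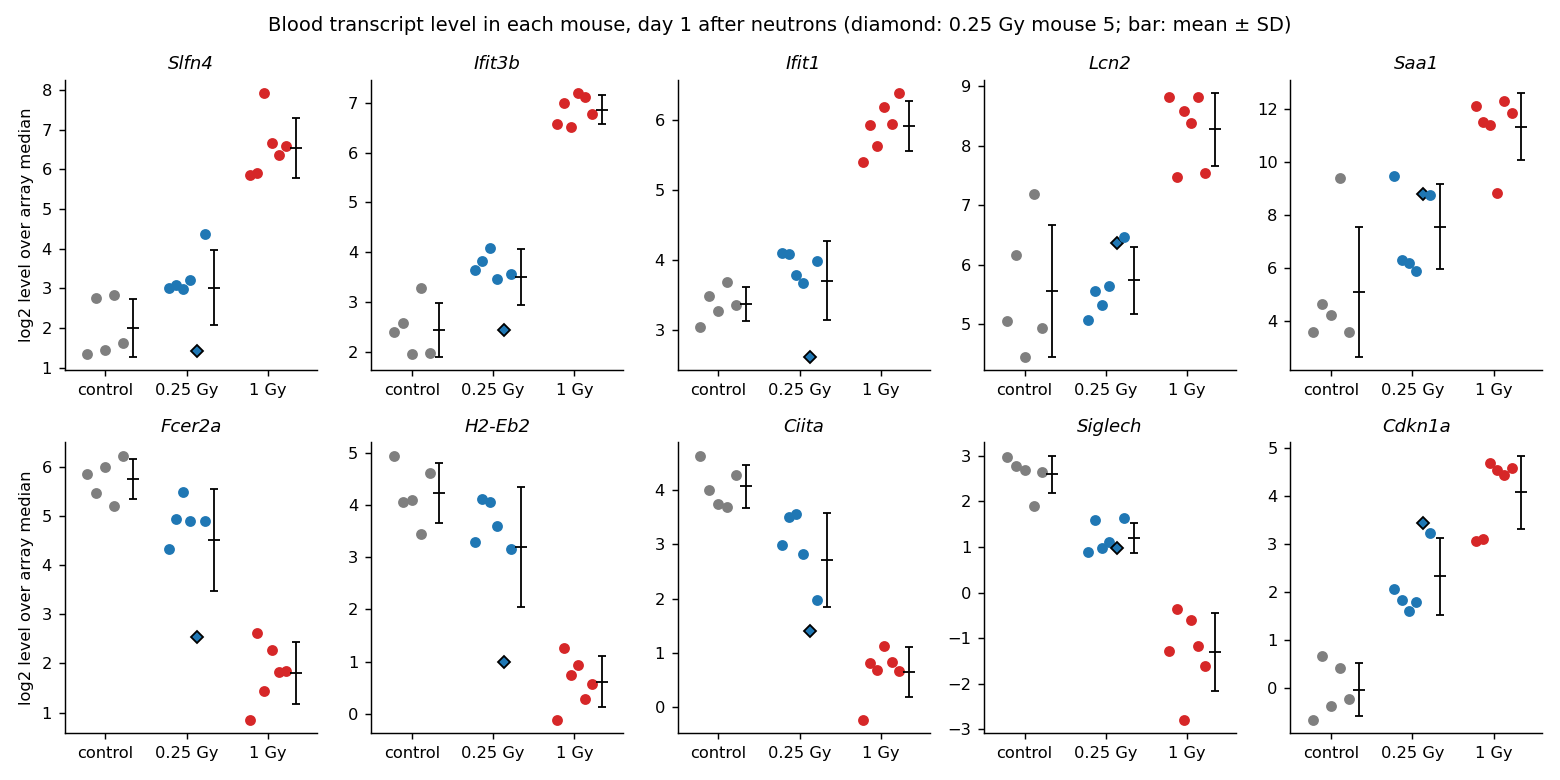
Log2 level over the array median (vertical axes) of 10 genes in each control (grey), 0.25 Gy (blue) and 1 Gy (red) mouse, with the mean and SD of each group as black bars and mouse 5 of the 0.25 Gy group as a diamond. In Slfn4, Ifit3b, Ifit1 and Lcn2 every 1 Gy mouse lies above every 0.25 Gy mouse; in Fcer2a the diamond lies at 2.53, among the 1 Gy mice.

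The list of mature neutrophil genes also held genes higher at 1 Gy. The called members were Cxcr1, a receptor for chemokines that attract neutrophils, Il1r2, a decoy receptor for interleukin-1, Hdc, the enzyme that makes histamine, and Fpr2, a formyl peptide receptor. Cxcr1 ran from -0.20 through 1.25 to 1.80 at 0.25 Gy and from 2.50 through 2.94 to 4.90 at 1 Gy, with no overlap and a difference of 2.10 (SE 0.42, adjusted p = 0.0432). Il1r2 ran from 1.87 through 3.34 to 4.00 and from 4.61 through 4.85 to 5.64 (1.81, SE 0.34, adjusted p = 0.0326). The differences of Hdc and Fpr2 were 1.72 (SE 0.32, adjusted p = 0.0326) and 1.53 (SE 0.30, adjusted p = 0.039). Of the 18 genes 17 had positive values, with a median of 1.10. S100a8, which encodes a subunit of calprotectin and is among the most abundant neutrophil transcripts, differed by 0.87 (adjusted p = 0.163) and Itgam by -0.21 (adjusted p = 0.719). The mean level of the list was 5.25 to 6.62 at 0.25 Gy, 6.95 to 7.85 at 1 Gy and 5.40 to 6.57 in controls, so that the 1 Gy mice did not overlap with either group. None of the 4 calls held within the shared scan day, where the values were 2.38 for Cxcr1, 1.88 for Il1r2 and 1.87 for Hdc with adjusted p of 0.1475 to 0.1792. Fpr2 was at 1.53 there (adjusted p = 0.2285). Called members numbered 6 without mouse 5 at 0.25 Gy and 0 to 4 in the other fits with 1 mouse left out.

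Mrgpra2a, a Mas-related G protein-coupled receptor, was also among the 10 largest rises of genes whose groups did not overlap, at 0.93, 1.74 and 3.01 at 0.25 Gy and 3.37, 3.64 and 4.68 at 1 Gy (difference 2.10, SE 0.35, adjusted p = 0.0226). Genes of immature neutrophil granules gave 1 call of 10. That call was Lcn2, a siderophore-binding protein of neutrophil granules that the liver also makes in the acute phase. Lcn2 ran from 5.07 through 5.60 to 6.46 at 0.25 Gy and from 7.47 through 8.48 to 8.82 at 1 Gy, while controls spread from 4.45 to 7.18. Its difference was 2.54 (SE 0.33, 5.8-fold, adjusted p = 0.00373) and stayed at 2.58 (adjusted p = 0.0418) within the shared scan day. The granule enzymes Elane (-0.17) and Ctsg (-0.19) had adjusted p of 0.899 and 0.82. Mouse 4 at 1 Gy stood above the others on the mean of 14 such granule genes, at 5.20 against 2.34 to 3.01.

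Acute-phase genes, the liver's secreted response to inflammation, had a median difference of 1.77 over 7 genes, all positive. Beside Lcn2 the call was Saa1, serum amyloid A, with 5.88, 7.53 and 9.48 at 0.25 Gy and 8.84, 11.69 and 12.32 at 1 Gy. The groups overlapped through 1 mouse of each dose. The lowest 1 Gy value belonged to mouse 4, which also had the lowest hepatocyte level, and control mouse 4 reached 9.40 while the other controls lay between 3.58 and 4.66. The difference was 3.77 (SE 0.73, 13.7-fold, adjusted p = 0.039). With the hepatocyte level as a covariate it was 3.46 (SE 0.57, adjusted p = 0.00664) and Lcn2 2.51 (adjusted p = 0.00132). The mean hepatocyte level was 3.12 to 10.95 at 0.25 Gy (median 7.55) and 1.13 to 10.22 at 1 Gy (median 9.16), and its part in the acute-phase values beyond that covariate was not tested.

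B cell genes and the genes that present antigen on MHC class II were lower at 1 Gy. In blood RNA, fewer cells of a type and less RNA per cell cannot be told apart. The study's methods report no significant change in white blood cell makeup or cell death after irradiation. Its results describe total blood counts as normal at days 1 and 7. Fcer2a, the low-affinity IgE receptor CD23, had levels of 2.53, 4.89 and 5.48 at 0.25 Gy and 0.86, 1.83 and 2.62 at 1 Gy, while controls lay between 5.20 and 6.22. The groups overlapped only through mouse 5 at 0.25 Gy, whose value was the 2.53. The difference was -2.70 (SE 0.45, 6.5-fold lower, adjusted p = 0.0226). Cr2, the complement receptor CD21, ran from 3.02 through 5.51 to 6.12 and from 1.77 through 2.72 to 3.49 (-2.49, SE 0.47, adjusted p = 0.0326). Vpreb3 differed by -2.56 (SE 0.48, adjusted p = 0.0326) and Tnfrsf13c, the receptor of the survival factor BAFF, by -2.18 (SE 0.46, adjusted p = 0.0486). A dimmer detected probe of Tnfrsf13c gave -0.67. The chemokine receptor gene Ccr6, also expressed by B cells, was called on the list of chemokine receptors (-2.35, SE 0.49, adjusted p = 0.0486).

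Of the 22 B cell genes tested 21 had negative values, with a median of -1.58. Cd79a, Cd79b and Ms4a1, which mark the lineage, differed by -1.37, -1.67 and -1.37 with adjusted p of 0.111 to 0.154, and were not called on all 12 mice. The mean level of 23 B cell genes was 3.37 to 5.99 at 0.25 Gy (median 5.55), 2.60 to 4.27 at 1 Gy (median 4.03) and 5.58 to 6.62 in controls. Mouse 5 at 0.25 Gy had the 3.37, and the next lowest mouse of its group lay above every 1 Gy mouse. Without mouse 5, 18 of the 22 were called lower and Fcer2a differed by -3.10 (SE 0.30, adjusted p = 0.000515). In the other fits with 1 mouse left out 0 to 3 were called, and within the shared scan day 0, where Fcer2a was at -2.71 (SE 0.54, adjusted p = 0.1475).

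Among MHC class II genes, Ciita, which encodes a transcriptional activator of the class II chain genes, was the called member with no overlap. It ran from 1.41 through 2.90 to 3.55 at 0.25 Gy and from -0.23 through 0.76 to 1.12 at 1 Gy, with controls at 3.68 to 4.63 (difference -2.06, SE 0.37, adjusted p = 0.0297). Dimmer detected probes of Ciita gave -1.59 and -0.47. H2-Eb2, a beta chain, was at 1.00, 3.45 and 4.11 and at -0.11, 0.66 and 1.27 (-2.59, SE 0.46, adjusted p = 0.0269). H2-Ob, a chain of the H2-O chaperone that tempers peptide loading, differed by -2.32 (SE 0.49, adjusted p = 0.0486). All 11 genes had negative values, with a median of -1.85, and the invariant chain gene Cd74 was at -1.16 (adjusted p = 0.158). Without mouse 5 at 0.25 Gy 9 of 11 were called lower, and in the other 11 fits 0 to 2.

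**Figure D3:**
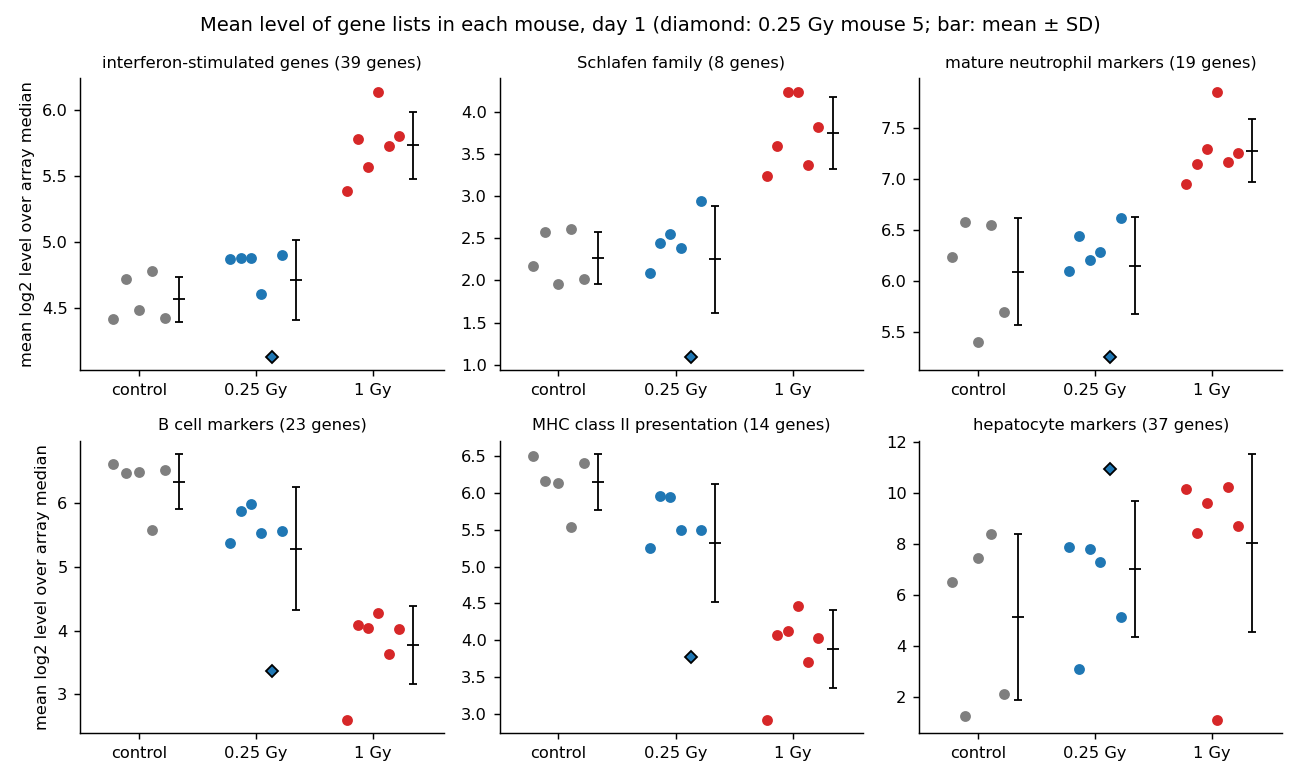
Mean log2 level over the array median (vertical axes) of 6 gene lists in each control (grey), 0.25 Gy (blue) and 1 Gy (red) mouse, with the mean and SD of each group as black bars and mouse 5 of the 0.25 Gy group as a diamond. Interferon-stimulated genes lie at 5.38 to 6.14 in the 1 Gy mice, above all others; mouse 5 is lowest of its group in all lists but the hepatocyte genes, where it is highest at 10.95.

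Several falls lay outside these lists. Cd55, the decay-accelerating factor that protects cells from complement, ran from 3.91 through 5.84 to 6.56 at 0.25 Gy and from 3.01 through 3.74 to 3.87 at 1 Gy, with no overlap (difference -2.03, SE 0.37, adjusted p = 0.0326). Pla2g2d, a secreted phospholipase A2, overlapped through mouse 5 at 0.25 Gy, with 1.68, 4.33 and 4.52 against 0.02, 1.18 and 2.06 (-2.77, SE 0.49, adjusted p = 0.0262). Zfp318, which B cells need to make IgD, fell by 1.27 on the log2 scale (SE 0.25, adjusted p = 0.0445). Siglech, a lectin of plasmacytoid dendritic cells, was at 0.89, 1.05 and 1.63 at 0.25 Gy and at -2.79, -1.23 and -0.36 at 1 Gy (difference -2.50, SE 0.35, adjusted p = 0.00839). That value comes from a dim probe that was well above background on 3 of the 6 arrays at 1 Gy. A second detected probe, far brighter with a mean level of 9.99, differed by -0.42 and did not pass the filter on fold changes, so the fall of Siglech rests on which probe stands for it.

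Among called genes whose groups did not overlap, the other genes of the 10 largest falls that the naming rule took were Sox6 (-1.33, SE 0.23, adjusted p = 0.0262), a transcription factor of red cell precursors, Mylk3 (-1.83), Klhl32 (-1.78), Cyp46a1 (-1.26), the immunoglobulin segment Igkv4-53 (-1.71) and D13Ertd608e (-1.96), with adjusted p of 0.0226 to 0.0466. Sox6 was well above background on 3 of 6 arrays at 1 Gy. At 0.25 Gy the means of Mylk3, Klhl32 and Igkv4-53 lay above the control means by 0.69, 0.69 and 0.85, with adjusted p of 0.358, 0.424 and 0.305. Lists with a single call included the inflammatory cytokine list (1 of 19, the Il1r2 given above), iron handling, where the iron exporter Slc40a1 rose by 1.06 (SE 0.20, adjusted p = 0.0326), and the E2F family, where Lin9, a subunit of the MuvB complex that controls cell cycle genes, fell by 1.06 on the log2 scale (SE 0.20, adjusted p = 0.0326).

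Genes of the p53 response gave 1 call between the doses. Cdkn1a, the cell cycle inhibitor p21, was at -0.66 to 0.66 in controls, at 1.60, 1.95 and 3.45 at 0.25 Gy and at 3.07, 4.50 and 4.71 at 1 Gy. No control reached the lowest 0.25 Gy mouse, whereas 2 of the 0.25 Gy mice lay within the range at 1 Gy. Its difference between the doses was 1.75 (SE 0.42, adjusted p = 0.0764), which did not pass the test, and without mouse 5 at 0.25 Gy it was 1.98 (SE 0.39, adjusted p = 0.00793). Against controls, whose mice both comparisons share, it was 2.37 (SE 0.39, adjusted p = 0.0863) at 0.25 Gy and 4.12 (SE 0.37, adjusted p = 4.3e-05) at 1 Gy. Phlda3, a p53 target that restrains Akt signalling, was the only call among 15 p53 targets of arrest, with 4.78, 5.55 and 6.00 at 0.25 Gy and 6.21, 6.79 and 7.16 at 1 Gy (difference 1.28, SE 0.26, adjusted p = 0.0448). It was 1.19 (adjusted p = 0.261) within the shared scan day.

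The list of 15 had a median difference of 0.96, with 13 positive values. Ccng1 (0.68, adjusted p = 0.156), a cyclin induced by p53, and the death genes Bax (0.59, adjusted p = 0.122), Fas (0.45, adjusted p = 0.161) and Bbc3 (0.38, adjusted p = 0.344) did not pass. None of 11 p53 targets of apoptosis was called, with a median of 0.56. Mdm2, the feedback inhibitor of p53, is on the array and did not pass the filters.

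**Figure D4:**
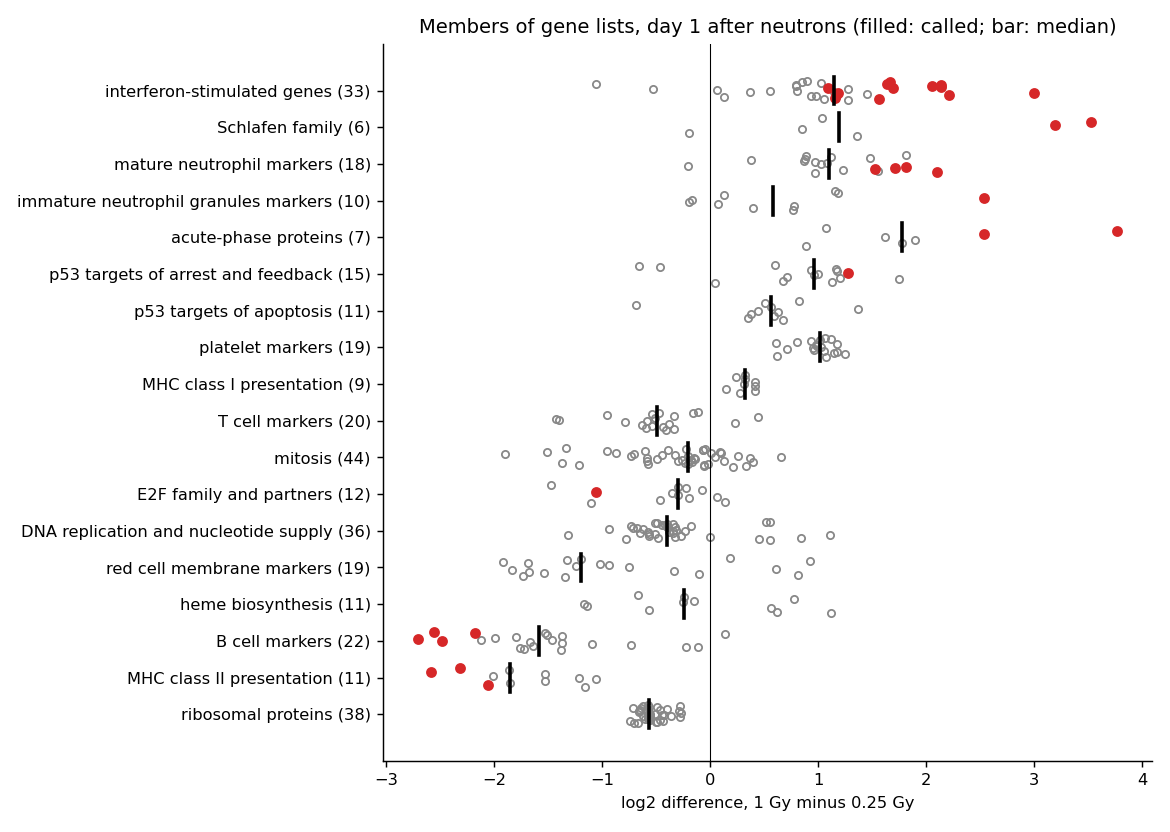
Log2 difference, 1 Gy minus 0.25 Gy (horizontal axis), of each member of 18 gene lists (rows, with the number of genes tested), filled red where called and open grey where not, with the list median as a black bar. Called interferon-stimulated genes reach 3.00 and called B cell genes -2.70; the platelet, mitosis and red cell membrane lists hold no called gene.

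The mitosis, DNA replication, red cell membrane, heme and reticulocyte clearance lists gave no call. Nusap1, a spindle protein, was at 5.66, 6.75 and 7.07 at 0.25 Gy and at 3.56, 4.43 and 6.04 at 1 Gy, with overlap and a difference of -1.90 (SE 0.43, adjusted p = 0.0632). Ube2c (-1.34, adjusted p = 0.143), Ccna2 (-1.21, adjusted p = 0.161), Cdc25b (-1.38, adjusted p = 0.122), E2f2 (-1.10, adjusted p = 0.134) and Fzr1 (-0.49, adjusted p = 0.355) had negative values that did not pass. The 44 mitosis genes had a median of -0.21 and the 36 replication genes of -0.40. Epb41, a protein of the red cell skeleton, was at 10.91, 12.35 and 12.75 and at 9.13, 10.38 and 11.93 (-1.54, SE 0.48, adjusted p = 0.122). In 15 of 19 red cell membrane genes the value was negative, with a median of -1.19. The heme enzyme Alas2 differed by -0.56 (adjusted p = 0.21), and its spots were saturated on 3 arrays of each dose. Across these genes the 1 Gy mice spread widely, with mice 2 and 4 nearest to the 0.25 Gy group for Nusap1, Epb41 and Ube2c.

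All 19 platelet genes tested had positive values, with a median of 1.02 and none called. The bright platelet gene Pf4 was not among those tested. Its levels overlapped widely, at 11.69 to 12.8 at 0.25 Gy and 11.52 to 12.66 at 1 Gy. Ppbp, which encodes the most abundant platelet chemokine, differed by 0.61 (adjusted p = 0.347) and Clec1b by 0.62 (adjusted p = 0.35), and 1 Gy mouse 3 was lowest of its group in both. In 18 of 20 T cell genes the value was negative (median -0.49), Lck being at -0.34 (adjusted p = 0.655) and Cd4 at 0.23 (adjusted p = 0.849). The 38 ribosomal protein genes were all negative, at a median of -0.56, and the 9 MHC class I genes all positive, at 0.33. The class I light chain gene B2m was at 0.27 (adjusted p = 0.51). The cytotoxic granule gene Gzma differed by 0.83 (adjusted p = 0.31) and the monocyte receptor gene Csf1r by 0.17 (adjusted p = 0.681). Of the cytotoxic cell genes 18 of 19 were positive (median 0.75). These values moved with mouse 5 at 0.25 Gy. Without it Gzma differed by 0.37, Csf1r by 0.03, B2m by 0.23, Lck by -0.76 and Cd4 by 0.46. Ppbp and Clec1b then differed by 0.43 and 0.44. The fatty acid oxidation genes were positive in 20 of 20 (median 0.77) and the sterol synthesis genes in 19 of 20 (median 0.47), both lists of enzymes that the liver expresses strongly. At each dose the mouse with the highest hepatocyte level also had the highest mean of both lists, and at 1 Gy the mouse with the lowest had the lowest. The part of liver transcripts in these values was not tested. Heart muscle genes reached a mean level of 0.88 in 1 Gy mouse 5, against -2.08 to -0.45 in the other 1 Gy mice. A p above the threshold does not show that these levels were equal.

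Ap2b1, an adaptor subunit of clathrin coats, had a wide spread at 1 Gy. At 0.25 Gy it lay between -1.10 and 0.04 and in controls between 1.64 and 3.62. The 1 Gy mice split, with mice 1, 2 and 3 at -2.07, -3.29 and -1.64 and mice 4, 5 and 6 at 2.70, 2.92 and 2.94, on either side of the whole 0.25 Gy group. Its probe was well above background on 5 arrays at 0.25 Gy and 4 at 1 Gy. The difference between the doses was 1.05 (SE 1.03, adjusted p = 0.534), and the value turned to -0.29 within the shared scan day.

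The same doses at day 7 (6 mice at 1 Gy and 5 at 0.25 Gy) and the x-ray doses of 4 and 1 Gy at day 1 (5 and 6 mice) come from other mice and are set beside the neutron difference of day 1. At day 7, 3332 genes were called between the neutron doses (26.7%), 1537 higher at 1 Gy (12.3%) and 1795 lower (14.4%). The difference of day 7 minus that of day 1 passed the test for 1647 genes (13.2%), 1340 with the higher value at day 7 (10.7%) and 307 with the higher value at day 1 (2.46%). Among the 33 interferon-stimulated genes, 15 were in the second class and 3 in the first. Ifit3b differed between the doses by -0.41 at day 7 (adjusted p = 0.271), and its change from day 1 was -3.78 (SE 0.41, adjusted p = 1.58e-05). Ifit3 was at -0.67 at day 7 (adjusted p = 0.0429, not called because its p exceeded 0.001; change -3.67, SE 0.38, adjusted p = 1.46e-05). Slfn4 (change -2.81, SE 0.63, adjusted p = 0.00206) and Slfn3 (-2.81, SE 0.58, adjusted p = 0.00119) had smaller differences at day 7, of 0.72 and 0.39. For Ifit1, with 1.17 at day 7, the change did not pass (-1.04, SE 0.43, adjusted p = 0.0651).

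The median dose difference of red cell membrane genes and that of mitosis genes were higher at day 7 than at day 1. For DNA replication genes the median dose difference was -0.49 at day 7 and -0.40 at day 1, with the change called for 3 of 36. At day 7, 16 of 19 red cell membrane genes and 15 of 44 mitosis genes were higher at 1 Gy, and the change from day 1 was called, toward day 7, for 15 and 14 members of these lists. Epb41 differed by 1.61 at day 7 (adjusted p = 0.000248) with a change of 3.15 (SE 0.58, adjusted p = 0.00042). Nusap1 was at 1.44 (adjusted p = 0.00127, change 3.34, SE 0.55, adjusted p = 0.00017), and Ube2c, Ccna2, Cdc25b, E2f2 and Fzr1 changed by 3.23, 3.30, 2.76, 3.10 and 2.31, all called. The germ cell gene Dppa2 (4.80, SE 0.68, adjusted p = 7.46e-05) and Apol10a (4.88, SE 0.88, adjusted p = 0.000361) had the largest positive changes among called genes that carry a full gene symbol. B cell genes did not turn. Fcer2a was at -2.31 at day 7 (adjusted p = 2.79e-05), with a change of 0.39 (SE 0.54, adjusted p = 0.577), and 21 of the 22 B cell genes and 10 of 11 MHC class II genes were lower at 1 Gy at day 7.

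Between 4 and 1 Gy of x-rays at day 1, 2181 genes were called (17.5%), 489 higher at 4 Gy (3.92%) and 1692 lower (13.6%). The x-ray difference minus the neutron difference was called for 0 genes by limma, with 1669 at an unadjusted p below 0.05. Without mouse 5 at 0.25 Gy 1 gene was called. The 2 differences span different doses and are set side by side. Fcer2a was at -5.08 (adjusted p = 6.3e-08) with x-rays and -2.70 with neutrons, Pla2g2d at -5.92 (adjusted p = 4e-08) and -2.77, and H2-Eb2 at -5.11 (adjusted p = 6.21e-06) and -2.59. With x-rays 19 of 22 B cell genes, 11 of 11 MHC class II genes, 18 of 20 T cell genes and 26 of 44 mitosis genes were lower at the higher dose. Slfn4 was at 2.24 (adjusted p = 0.00173) with x-rays against 3.53, Ifit3b at 2.25 (adjusted p = 0.00237) against 3.37, and Lcn2 at 3.95 (adjusted p = 7.5e-05) against 2.54. The list of interferon-stimulated genes had a median of 0.57 and 6 calls there.

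**Figure D5:**
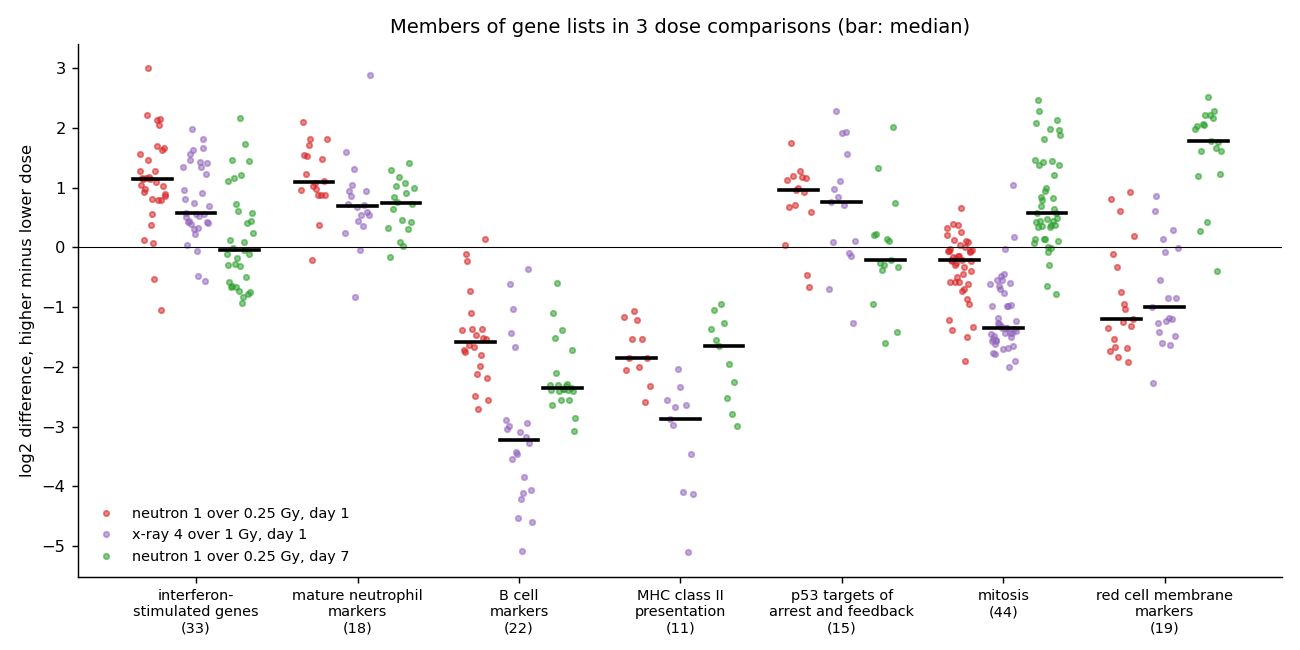
Log2 difference of the higher minus the lower dose (vertical axis) for each member of 7 gene lists in neutrons at day 1 (1 against 0.25 Gy, red), x-rays at day 1 (4 against 1 Gy, purple) and neutrons at day 7 (1 against 0.25 Gy, green), with list medians as black bars. The median of interferon-stimulated genes is 1.15, 0.57 and -0.04 in this order, and that of red cell membrane genes -1.19, -0.99 and 1.79.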

How the data were processed

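Blood RNA of 12 mice was measured on 1-colour Agilent mouse arrays. Per the labels and methods, the authors scanned the arrays and used Agilent Feature Extraction 12.0.2, and the deposited values used here are processed spot intensities, background-subtracted and linear, with mm9 probe positions. The deposited table of normalized values and the day 3 arrays were not used here. Control and outlier spots were left out, spots of 1 probe averaged, log2 taken and each array centred on the median of its probes. Over the 56 arrays of days 1 and 7, a probe was dropped if 25% or more failed its outlier or background flag, or if under 20% departed 1.5-fold from its median; the brightest probe stood for a gene (12485 genes). Symbols came from the array files, updated by accession for 28330 of 39429 probes. limma 3.58.1 in R 4.3.3 was fitted to the 2 groups, and each other dose difference and interaction to its own groups, with p below 0.001 and FDR below 0.05 as the threshold. The computations were tested on simulated data. The number of arrays limits the precision, and depth does not apply to arrays. Mice were separate animals per the methods. The named genes were the 10 largest rises and falls among called genes with non-overlapping groups and a level well above background on every array of 1 group, up to 4 called members per list, the 2 brightest of lists with none, fixed genes of p53, cell cycle and earlier results, and the genes with the largest interactions. Members and lists were chosen with earlier results of these data known. Values of a few list members are not reported here. Alternatives changed the centring, background, filters, probe choice, test, blocks and mice. The study's random variance test gave the same 84 calls as limma in number.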

Additional observations from a re-analysis of the deposited data

Results flagged for a closer look

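In 38 of 237 sets of values (1 gene or list in 1 group of mice), the highest or lowest mouse stood apart from the rest of its group, by a gap to the nearest mouse larger than Dixon's critical share of the group's range. For a single set of normally distributed values chance gives about 1 in 20. The sets share the same mice and are not independent, so that rate is no test of the 38. All values are log2 levels over the array median.

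Mouse 5 at 0.25 Gy stood apart in 14 genes, namely Ifit3 (3.89, lowest), Ifit1 (2.61, lowest), Oas2 (3.78, lowest), Cxcr1 (-0.20, lowest), Cd55 (3.91, lowest), H2-Eb2 (1.00, lowest), H2-Ob (4.79, lowest), Ccr6 (3.20, lowest), Slc40a1 (6.16, highest), Vpreb3 (4.25, lowest), Cr2 (3.02, lowest), Tnfrsf13c (3.45, lowest), Ap2b1 (0.043, highest) and Gzma (7.41, lowest). The means of its MHC class II presentation (3.78, lowest) and B cell markers (3.37, lowest) did so as well. Control mouse 4 stood apart in 6 genes, Zfp318 (3.60, lowest), Lin9 (0.31, lowest), Saa1 (9.40, highest), Vpreb3 (6.07, lowest), Tnfrsf13c (5.49, lowest) and Ap2b1 (1.64, lowest), and in the mean of B cell markers (5.58, lowest), and control mouse 2 in Fas (4.65, highest). Mouse 4 at 1 Gy stood apart in Cxcr1 (4.90, highest), Saa1 (8.84, lowest), Fpr2 (6.51, highest) and Apoa2 (7.26, lowest), and in the means of hepatocyte markers (1.13, lowest), skeletal muscle markers (-1.05, highest) and acute-phase proteins (2.48, lowest). Mouse 1 at 1 Gy stood apart in Ciita (-0.23, lowest), Cd55 (3.01, lowest) and Tnfrsf13c (2.25, lowest). Mouse 3 at 1 Gy stood apart in B2m (11.22, lowest), Ppbp (10.48, lowest) and Clec1b (9.87, lowest), and in the mean of T cell markers (4.03, lowest).

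The difference between the neutron doses was itself different at day 7 and day 1 for 1647 genes by limma's interaction term. Among the named genes the change, day 7 minus day 1, was negative for Slfn4 (-2.81), Ifit3b (-3.78), Slfn3 (-2.81), Ifit3 (-3.67), Oas2 (-2.18) and Zfp318 (-1.29). It was positive for Siglech (2.44), Mylk3 (2.12), Sox6 (3.23), Ube2c (3.23), Fzr1 (2.31), Ccna2 (3.30), Cdc25b (2.76), Nusap1 (3.34), E2f2 (3.10), Dppa2 (4.80), Apol10a (4.88), Lig1 (2.95), Pttg1 (2.09), Alas2 (1.76), Fech (2.53), Bnip3l (2.17) and Epb41 (3.15).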

How the results depend on the processing

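The count of 84 genes moved by more than 1.5 times under several choices, whose causes were not tested. It was 147 with arrays centred on detected probes, 649 on spike-in controls and 41 with normexp background correction. Detection judged on the 12 arrays gave 55, the plain t-test 53 and all 10 groups fitted 769. Mouse numbers as a block gave 138, scan day as a block 9 and the shared scan day alone 5. The count was 751 with the slide as a random block and 361 with the hepatocyte level as a covariate. With 1 mouse left out it ranged from 10 to 998. Chosen after seeing the data, leaving out both outlying arrays (mouse 5 at 0.25 Gy and mouse 4 at 1 Gy) gave 1446 and the shared scan day without mouse 5 at 0.25 Gy gave 414.

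Mouse numbers did not meet the criterion for pairing, a correlation of deviations over 0.1 in every pair: 1 pair was at 0.05 and the other 5 at 0.16 to 0.52, and 2 of 6 mice correlated best with their own number. The fit with the replicate block called 138 genes, 54 higher and 84 lower.

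The day 7 difference of 1647 genes became 4519 on spike-in controls and 882 with normexp, and 1381 to 2231 with 1 mouse left out. The x-ray difference of 0 genes became 4 on spike-in controls and 0 to 1 with 1 mouse left out. Members called with 1 mouse left out were 5 to 18 interferon-stimulated, 2 to 2 Schlafen, 0 to 18 B cell, 0 to 9 MHC class II and 0 to 6 mature neutrophil genes.

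Signs turned only for uncalled genes. Lck was 0.083 on spike-in controls. Ap2b1 was -0.29 with scan day as a block or within the shared scan day, and -0.12 there without mouse 5. Cd4 was -0.16 in both scan day fits, -0.039 with the hepatocyte covariate and -0.16 to 0.56 with 1 mouse left out. Apoa2 was -0.11 with that covariate, and Csf1r -0.054 without both outlying arrays. Over all named values, 1733 kept direction and side of the threshold, 419 lost a call, 30 gained one and 13 turned.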
